A study of Mus musculus with 2 samples.

Results

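The fibroblast growth factor (FGF) genes examined here were 18 secreted ligands, the 4 intracellular FGFs Fgf11 to Fgf14, the 4 receptors Fgfr1 to Fgfr4, and 7 feedback inhibitors, Spry1 to Spry4, Spred1, Spred2 and Dusp6. They were taken by name, 33 genes of 21900 protein-coding genes, and each was looked up in the authors' deposited table of genes with POU3F1 peaks, which lists 2323 genes. POU3F1 occupancy was measured by CUT&RUN, in which an antibody tethers a nuclease to chromatin and the cut fragments are sequenced, in retina of wild-type (WT) CD1 mouse embryos at embryonic day 14 (E14). The data were 1 library made with the POU3F1 antibody and 1 made with rabbit IgG, both from the same tissue, strain and age; neither carries a mutation, a transgene or a treatment per the labels. The labels do not say whether tissue of several embryos was pooled. Peaks are listed for the POU3F1 library alone, and signal of the IgG library is not analysed here. No value below therefore has a replicate check, and the values describe this list only. The labels call the material retinal cells; occupancy data give no expression, so cell type markers were not checked.

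Secreted FGFs bind receptor tyrosine kinases together with heparan sulfate or Klotho proteins and switch on the RAS-ERK cascade. ERK activity induces its own brakes, among them the Sprouty and Spred proteins and the ERK phosphatase DUSP6. In the developing eye, FGF signals promote neural retina over pigment epithelium and help start the differentiation of retinal ganglion cells. Fgf11 to Fgf14 have the FGF fold but are not secreted in the classical way, and are known mainly for binding voltage-gated sodium channels.

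Of the 33 genes, 7 (21.2%) had at least 1 assigned POU3F1 peak, against 10.2% of protein-coding genes. They were the secreted ligands Fgf5, Fgf9 and Fgf15, the intracellular Fgf12 and Fgf13, and the inhibitors Spred1 and Dusp6. No receptor and no Sprouty gene had one. By role, the counts were 3 of 18 secreted ligands (16.7%), 2 of 4 intracellular FGFs (50.0%), 0 of 4 receptors and 2 of 7 feedback inhibitors (28.6%). The 7 genes had 10 peaks in all, 1 each at Fgf5, Fgf13, Fgf15 and Dusp6 and 2 each at Fgf9, Fgf12 and Spred1.

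Close to the transcription start site (TSS), 3 genes had a peak: Dusp6, Fgf15 and Spred1 had one within 5 kb of it. That was 9.09% of the 33, where 1.39% of protein-coding genes had a peak so close. Within 50 kb the count was again 3, beside 3.64% of protein-coding genes. When each peak was counted only for the assigned gene with the nearest TSS, 5 genes kept a peak (15.2%, beside 6.74%). Fgf5 and Fgf12 were the ones without a peak by that count, which used the deposited start sites. From the outermost RefSeq start site of Fgf12, its weaker peak was 88193 bp away, beside 88263 bp from the deposited TSS of its neighbour Mb21d2. With peaks of q under 0.01 or under 0.001, and with peaks within 500 kb, all 7 genes kept a peak, where the shares of protein-coding genes were 9.97%, 9.58% and 9.48%. Measured from the closest RefSeq start site of a gene, or from the deposited one where no RefSeq start site was at hand (as for Fgf15), 3 genes had a peak within 50 kb (beside 3.75%) and 3 within 5 kb (beside 1.47%). The 24 genes with such a window do not include Fgf15. Among them, Dusp6 and Spred1 had a peak within 50 kb and also within 5 kb (8.33%, beside 3.78% and 1.55% of 17492 protein-coding genes with a window). These differences have no test, because 1 peak list gives no error between samples and neighbouring genes share peaks.

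**Figure D1:**
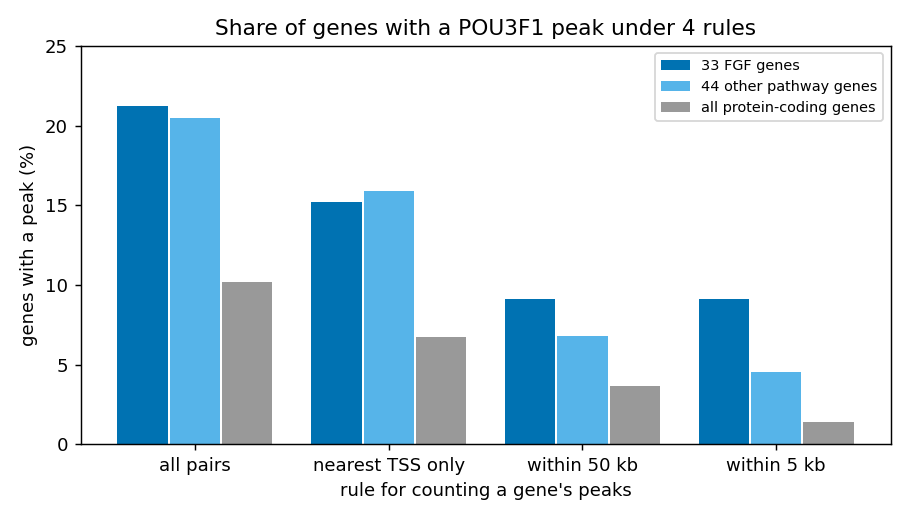
Bars show the percent of genes with a POU3F1 peak (vertical axis) under 4 rules for counting a gene's peaks (horizontal axis), for the 33 FGF genes, the 44 other FGF pathway genes and all protein-coding genes. The 33 FGF genes went from 21.2% with all pairs to 9.09% within 5 kb, while all protein-coding genes went from 10.2% to 1.39%.

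By fold, the peaks themselves were ordinary for this list. MACS2 gives each peak a fold, the fragment pileup at the summit over the local background, with 1 added to both. The median fold of the 10 peaks was 6.63 (range 3.73 to 15.1), beside 6.37 over all 2652 peaks. Of the 10, 5 lay above the median of all peaks and 5 below. Only 1 peak, at Fgf12, passed 10-fold, as did 18.7% of all peaks. The summit pileup, the number of fragments stacked at the highest point, could be recovered from the deposited fold and p-value, and ran from 8 to 46 at the 10 peaks with a median of 30, beside 19 over the list. The local background at these peaks ran from 1.04 fragments, the lowest in the list, to 8.22. Exact Poisson 95% intervals given with pileups cover counting error only, and fragments copied by PCR are not independent.

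**Figure D2:**
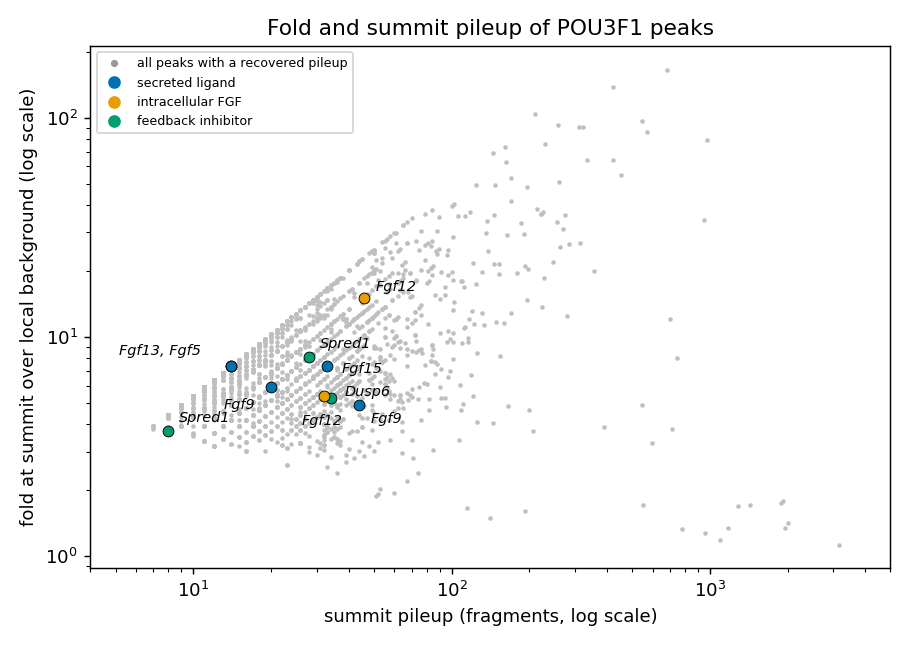
Each point is a POU3F1 peak, with the summit pileup in fragments on the horizontal axis and the fold over local background on the vertical axis, both log scales; grey points are all peaks with a recovered pileup and coloured points the 10 peaks of FGF genes, by role. The Fgf12 peak of 15.1-fold is the highest of the coloured points and the Spred1 peak of 3.73-fold the lowest, and the peaks of Fgf5 and Fgf13 coincide at a pileup of 14.

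Among the secreted ligands, Fgf15 had the peak nearest to a start site. Fgf15, the mouse counterpart of human FGF19, is an endocrine ligand of the gut in adults and is made by neural progenitors in the embryo. Its peak lay at chr7:144895290-144895577, 1098 bp upstream of the TSS, with 7.40-fold enrichment and a summit pileup of 33 fragments (22.7 to 46.3) over a local background of 3.60. It was assigned to no other gene. The interval falls within the body of Gm26793, a long non-coding RNA gene that RefSeq places from 144894121 to 144899688, across the start of Fgf15.

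The same interval was the nearest peak of 2 more ligand genes. Fgf4, needed by the early embryo and the limb bud, and Fgf3, a ligand of the inner ear and the early eye, lie beside Fgf15 on chromosome 7. The gap from the peak to the gene was 30045 bp for Fgf4 and 51942 bp for Fgf3. Neither was assigned a peak, since the deposited assignment gives a peak inside one gene's basal domain (5000 bp upstream to 1000 bp downstream of the TSS) to that gene alone.

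Fgf9, a ligand that favours neural retina over pigment epithelium in the optic vesicle, had 2 peaks, both downstream and outside annotated genes. The closer, at chr14:58153968-58154389, lay 81492 bp from the TSS and 41114 bp beyond the end of the gene, with 5.88-fold enrichment and a pileup of 20 (12.2 to 30.9). The farther, at chr14:58637701-58637979, lay 565154 bp from the TSS with 4.88-fold enrichment. Its pileup of 44 (32.0 to 59.1) was the highest but one among the 10 peaks, and its low fold went with the highest local background among them, 8.22. Both were also assigned to 1700129C05Rik, whose TSS was 988715 bp from the closer peak and 505053 bp from the farther one.

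Fgf5, a ligand that limits hair growth, had 1 peak, at chr5:98182399-98182750 and 71610 bp upstream of its TSS (7.37-fold, pileup 14, 7.65 to 23.5). That interval lies inside Prdm8, 1596 bp downstream of the Prdm8 TSS. Prdm8 encodes a transcriptional regulator of neurons, known in the retina from bipolar and amacrine cells. The assignment to Fgf5 therefore rests on a peak within another gene.

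The remaining 15 secreted ligands had no assigned peak. These were both members of the FGF1 subfamily (Fgf1, Fgf2), Fgf4 and Fgf6, all 4 of the FGF7 subfamily (Fgf3, Fgf7, Fgf10, Fgf22), all 3 of the FGF8 subfamily (Fgf8, Fgf17, Fgf18), Fgf16 and Fgf20, and the endocrine Fgf21 and Fgf23. Fgf8, a patterning ligand of the forebrain and optic stalk, had its nearest peak 139845 bp away at chr19:45596137-45596646 (6.16-fold, pileup 78). That peak was assigned to Fbxw4 and lies inside Fbxw4, a gene whose introns are known to hold remote enhancers of Fgf8. Whether this interval is one of them was not tested. For Fgf22 and Fgf21 the nearest peaks were 150940 and 215422 bp away. Fgf6 and Fgf23, neighbours on chromosome 6, had theirs 2006612 and 2063972 bp away, and Fgf10, a ligand of limb and lung outgrowth, 2002401 bp. X-linked Fgf16 had the farthest of the secreted ligands, 6543141 bp.

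Both intracellular FGFs with peaks are long genes. Fgf12, a sodium channel modulator of neurons, had the strongest peak of all 33 genes, at chr16:28851186-28851860 (15.1-fold, pileup 46, 33.7 to 61.4). Of all peaks, 91.9% had a lower fold. A second peak stood 10088 bp away at chr16:28841263-28841608 (5.38-fold, pileup 32, 21.9 to 45.2). The deposited table puts them 406296 and 396208 bp upstream of Fgf12, counted from a start near the innermost one in RefSeq. RefSeq lists 4 start sites for Fgf12, and from the outermost of them the peaks are 98280 and 88193 bp upstream. Both intervals lie inside the next gene, Mb21d2, 78175 and 88263 bp downstream of its TSS, and were assigned to it too.

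The Fgf13 peak changes side with the start site used. Fgf13 is the X-linked intracellular FGF, which acts on sodium channels and microtubules in neurons. Its peak, at chrX:59403007-59403205, had 7.37-fold enrichment and a pileup of 14 (7.65 to 23.5). The deposited distance is 268670 bp upstream. Measured from the 4 RefSeq start sites, the peak was 268670 and 237018 bp upstream of the 2 inner ones and 164242 and 182466 bp downstream of the 2 outer ones, so it lies inside the gene as annotated. Chromosome X held 43 of the 2652 peaks (1.62%). The fold and p-value of this peak equal those of the Fgf5 peak, a pair of values shared by 61 peaks of the list, because both are 14 fragments over the lowest background.

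**Figure D3:**
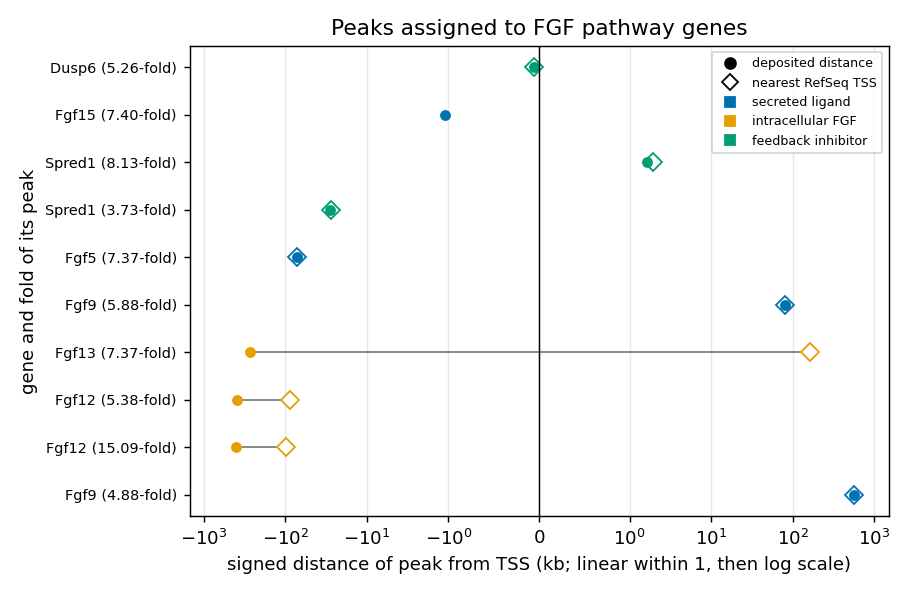
For each of the 10 peaks assigned to FGF genes, labelled with the gene and the fold, the horizontal axis gives the signed distance from the TSS in kb (negative upstream, linear within 1 kb, then log). Dots are the deposited distances, diamonds the distances to the nearest RefSeq TSS with a promoter window, and colours the roles. Fgf15 has no such window and hence no diamond. Dots and diamonds nearly coincide for Dusp6, Spred1, Fgf5 and Fgf9 and separate for Fgf12 and Fgf13.

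Fgf11 and Fgf14 had no assigned peak. Fgf11 is 6.88 kb long in a gene-dense stretch of chromosome 11, where the span between its protein-coding neighbours is 7.63 kb. It had 2 peaks within 75 kb, both at other genes' promoters: one of 41.9-fold, 36610 bp away, was assigned to Polr2a, 372 bp upstream of the TSS of that RNA polymerase II subunit gene, and one of 3.90-fold, 35239 bp away, to Nlgn2 and Tmem256. Fgf14, the longest of the 33 genes at 703.2 kb, had its nearest peak 908538 bp away.

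None of the 4 receptor genes had an assigned peak. The nearest peak was 50317 bp from Fgfr4 (6.69-fold), 179334 bp from Fgfr3 (5.86-fold), 326758 bp from Fgfr2 (7.82-fold) and 679516 bp from Fgfr1 (9.40-fold). Each was assigned to other genes, that of Fgfr4 to Uimc1 and Zfp346 close to their start sites. Weaker occupancy could go unlisted: the lowest summit pileup in the list was 7 fragments, and 95% of peaks with a recovered pileup had 9 or more. These are not fixed limits, since a site with a higher local background needs more fragments to be listed.

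Among the feedback inhibitors, the peak of Dusp6 lay on its promoter. DUSP6 removes the activating phosphates from ERK, and its gene is a common readout of FGF activity. The peak, at chr10:99263070-99263279, was centred 57 bp upstream of the TSS, with its summit 70 bp upstream, and was assigned to no other gene. It had 34 fragments at the summit (23.5 to 47.5) over a local background of 5.65. With 1 added to both, the fold was 5.26, and 31.3% of all peaks had a lower fold. The promoter is shown because it is the 1 member promoter window that a peak overlapped. The bases are those of RefSeq (GRCm38.p6, plus strand), from 250 bases before the TSS through 30 transcribed bases, chr10:99262981-99263260, with capitals for the 191 bases under the peak.
Dusp6: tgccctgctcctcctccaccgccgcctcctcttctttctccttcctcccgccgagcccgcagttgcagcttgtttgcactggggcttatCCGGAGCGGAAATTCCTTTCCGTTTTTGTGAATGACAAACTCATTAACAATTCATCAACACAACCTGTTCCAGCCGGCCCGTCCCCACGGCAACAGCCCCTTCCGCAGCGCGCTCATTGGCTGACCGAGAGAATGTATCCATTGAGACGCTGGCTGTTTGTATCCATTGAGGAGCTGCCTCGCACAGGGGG

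The full POU octamer was not found in this window. Motifs were sought on both strands of the 300-base windows (250 bases before to 50 after each start site) of 32851 RefSeq start sites. The octamer ATGCAAAT was in 1.74% of all windows and not in that of Dusp6. Its POU-specific part, ATGC, was in 75.4% of windows and also absent here. Its other part, AAAT, occurred once, 152 bases before the TSS and under the peak, and was in 75.2% of windows. The homeodomain core TAAT (58.0% of windows) and the promoter motif CCAAT (37.4%) each occurred once under the peak, 119 and 46 bases before the TSS, and the E-box CANNTG (72.3%) once, outside the peak. The ETS core CCGGAAGT (3.89%) and the cAMP response element TGACGTCA (1.79%) were not found. The GC content of the window was 57.3%, beside a median of 52.7%, and it held 19 CpG dinucleotides, beside a median of 7.

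Spred1, whose protein recruits neurofibromin to switch off RAS, had 2 peaks. The one inside the gene, at chr2:117122916-117123140, lay 1654 bp downstream of the TSS by the deposited table and 1957 bp by RefSeq, with 8.13-fold enrichment and a pileup of 28 (18.6 to 40.5). It was also assigned to Fam98b, 126711 bp upstream of that gene. The second, at chr2:117093201-117093504 and 28022 bp upstream, was the weakest of the 10 peaks (3.73-fold, pileup 8, 3.45 to 15.8). It was the 1 peak of the 10 with a q-value above 0.01.

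The other inhibitors had no assigned peak. Sprouty proteins, which block RAS-ERK signalling downstream of receptors, are the classical FGF feedback genes. The nearest peaks were 345036 bp from Spry2, 410962 bp from Spry4 and 857776 bp from Spry1, and 912974 bp from Spred2. The peak nearest to Spred2, at 8.83-fold, was assigned to Meis1. RefSeq positions Spry3 in the first 3 Mb of chromosome X, where its table also lists genes of unlocalised contigs, so no distance was computed for it.

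**Figure D4:**
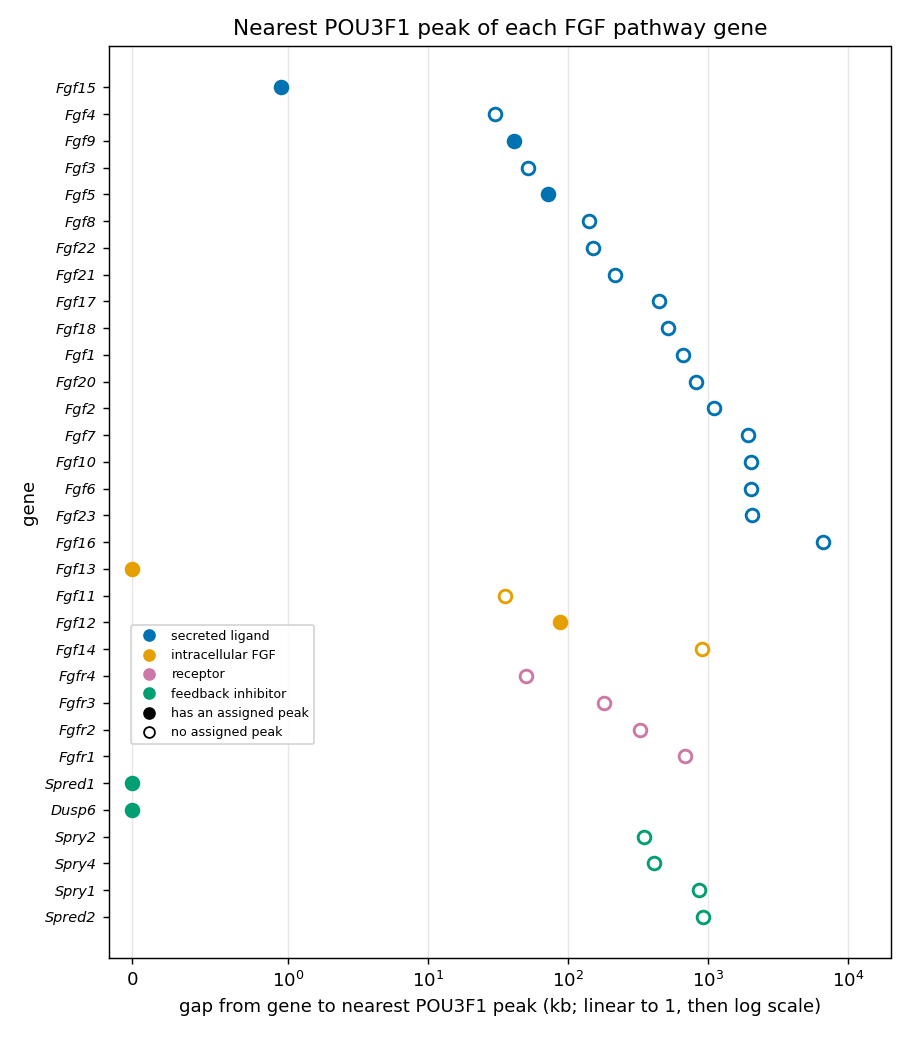
For 32 of the 33 genes (Spry3 has no usable position), the horizontal axis gives the gap from the gene to the nearest POU3F1 peak in kb, linear to 1 kb and then log, whatever gene that peak was assigned to; filled points have an assigned peak and colours mark the roles. Dusp6, Spred1 and Fgf13 sit at 0, while no receptor is nearer than 50.3 kb.

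Neighbourhood differed between genes with and without peaks. Counting any peak near the gene, whatever its assignment, 7 of 32 genes (21.9%) had one within 50 kb, beside 1961 of 21779 protein-coding genes, and 11 (34.4%) within 100 kb, beside 3048 of 21779. Windows of 75 and 150 kb were taken after these values were seen. Within 75 kb, 10 of 32 genes (31.2%) had a peak, beside 11.6% of protein-coding genes, and 4 of these 10, Fgf3, Fgf4, Fgf11 and Fgfr4, had no assigned peak. Fgf3, Fgf4 and Fgf15 were counted through the same interval in the windows of 75 kb and wider, as were Fgf4 and Fgf15 within 50 kb. Within 150 kb the count was 12 of 32 (37.5%, beside 18.5%), with Fgf8 and Fgf12 added. The 7 genes with an assigned peak had a median span between their protein-coding neighbours of 560 kb (49.9 to 1374 kb), and 24 of the genes without one a median of 122 kb (7.63 to 1043 kb). Over all protein-coding genes the medians were 342 kb with and 69.4 kb without an assigned peak. Isolated genes have larger assignment domains, and the part of this in the count of 7 was not tested.

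By location, 3 of the 10 peaks lay in the gene they were assigned to (Dusp6, Fgf13 and Spred1), 3 in another protein-coding gene (both of Fgf12 and that of Fgf5), 1 in a long non-coding RNA gene (Fgf15) and 3 outside annotated genes (both of Fgf9 and the weaker of Spred1). Of the 10, 8 were assigned to a further gene as well, those of Fgf15 and Dusp6 being the exceptions. For 6 of them the FGF gene had the nearest assigned TSS, by the deposited start sites.

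Beyond the 33, a list of 44 other genes of the pathway was counted in the same way. Of these, 9 (20.5%) had an assigned peak, beside 10.2% of protein-coding genes, and 2 (4.55%, beside 1.39%) had one within 5 kb of the TSS. Among those with peaks were 3 of 8 receptor partners and cofactors (Flrt1, Flrt2, Flrt3), 2 of 5 heparan sulfate enzymes (Hs6st1, Sulf2), 2 of 5 target transcription factor genes (Etv1, Etv5) and 1 of 7 other inhibitors (Rasa1). None of the 10 adaptor genes, such as Frs2, Grb2 and Sos1, had one. When each peak was counted only for the nearest assigned TSS, 7 of the 44 genes kept a peak (15.9%, beside 6.74%). Hs6st1 and Rasa1 did not, and the Hs6st1 peak had a q-value above 0.01.

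Etv5, an ETS factor gene induced by FGF signalling, had the strongest peak among these 44 genes and the 33. The first, at chr16:22439626-22440274 and 231 bp upstream of the deposited TSS, had 18.6-fold enrichment and a summit pileup of 228. A further 2 peaks lay inside the gene, 1199 bp (8.26-fold, pileup 20) and 10580 bp (13.7-fold, pileup 55) downstream. The summit of the first was 282 bp before the outer RefSeq TSS. Its promoter is shown beside that of Dusp6 as the other promoter of an FGF-induced gene under a peak (GRCm38.p6, minus strand, chr16:22439541-22439820, capitals for the 195 bases under the peak).
Etv5: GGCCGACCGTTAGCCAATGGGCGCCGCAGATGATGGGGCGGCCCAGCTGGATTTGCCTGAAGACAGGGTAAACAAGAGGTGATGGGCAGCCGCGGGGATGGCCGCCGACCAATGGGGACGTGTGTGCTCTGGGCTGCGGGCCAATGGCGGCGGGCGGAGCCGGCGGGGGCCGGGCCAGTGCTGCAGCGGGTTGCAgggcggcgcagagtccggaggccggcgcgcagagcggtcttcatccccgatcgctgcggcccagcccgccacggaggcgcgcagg

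The 195 bases are part of a peak of 649 bp, and its summit lies outside the window, so the motif search does not cover the summit or most of the peak. The octamer, ATGC and TAAT were not found in the window. It held AAAT once, 200 bases before the TSS, and the E-box CANNTG 2 times, 224 and 207 bases before the TSS. CCAAT occurred 3 times, at 237, 142 and 110 bases before the TSS. All of these lay under the peak. The GC content of the window was 74.0%, with 37 CpG dinucleotides. The peak inside Etv5 at 1199 bp covered the window of a second RefSeq start site, which lacked the octamer too.

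The adhesion protein gene Flrt3, whose product binds FGF receptors, had 7 peaks. One lay 2109 bp downstream of its TSS (4.27-fold, pileup 34) and the rest between 333133 and 819234 bp upstream, the strongest of 10.7-fold at 777925 bp. All 7 intervals lie inside the body of Macrod2, and the one at 2109 bp inside Flrt3 too. The peak at 333133 bp had a q-value above 0.01. Flrt2 had a peak of 14.7-fold, 679892 bp upstream, and Sulf2, which trims heparan sulfate, one of 8.26-fold, 403030 bp upstream. Etv1, another ETS factor gene, had its stronger peak 247417 bp downstream (7.59-fold).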

How the data were processed

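Per the submitters' processing notes, the tools were Bowtie2, MACS2 and deepTools (no versions named) and the build was mm10; no source used here says whether the IgG library served as the control in peak calling. The deposited peak list has 2652 intervals at a false discovery rate of 0.05, each with the authors' fold enrichment (a ratio over local background), −log10 p-value and −log10 q-value, a score (per the file's values, 10 times the −log10 q-value cut to a whole number) and a summit. Per the file headers, the deposited gene table came from GREAT 4.0.4, with domains of 5000 bp upstream and 1000 bp downstream extended up to 1000000 bp, curated domains included. Values of single peaks are the authors' and serve only to describe this list.

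Each deposited distance was matched to its peak through the single TSS per gene from which every listed distance reached a peak midpoint (within 1 bp). This matched 4288 of 4427 pairs (96.9%), including all pairs of the genes named here. The 10.2% of protein-coding genes counts all listed genes matched by name. Their shares under the other rules for assigned peaks count matched pairs only, which can lower them, while the 33 genes lost no pair. Gene bodies, names (2184 listed genes matched by symbol, 86 by synonym, 53 not) and start sites are RefSeq's, GRCm38.p6, the assembly of mm10; exons and introns were not separated. All 33 genes matched, and 24 had a promoter sequence. Genes placed under 3 Mb on chromosomes other than Y were left out of gaps and spans. Summit pileups are the whole numbers whose Poisson p-value equals the deposited one within 0.001 on the −log10 scale (2609 peaks, 98.4%). The background came from the deposited fold, with 1 added to pileup and background. The recovery was tested on values simulated with the same formulas. That simulation cannot show whether the deposited values follow them. Library depth is unknown. Python 3.11.15, pandas 2.3.3, numpy 2.4.6 and scipy 1.17.1 were used.

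The genes, the pathway list and the rules were chosen with earlier results of these data known. All 33 genes and their peaks are named, and of the other pathway genes those with the 5 strongest peaks or a peak within 5 kb. The motifs CCAAT, TAAT, ETS and cAMP response element, the RefSeq start sites and the counts of any nearby peak were added after the data were seen. Those counts were first made within 50 and 100 kb; windows of 75 and 150 kb were chosen with the first values known, and all 4 are given. With 1 list and no replicates, no test was made. The breakdown of the other pathway genes is given in part; the rest is not reported here.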

Additional observations from a re-analysis of the deposited data

How the results depend on the processing

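Of 80 recomputed values under 10 alternatives, 48 stayed close to those reported (counts within 1.5 times, medians within the exact binomial 95% interval of the median, 4.88 to 8.13) and 32 moved. No value moved under the stricter q-value thresholds (0.01 and 0.001) or with pairs within 500 kb. Within 50 kb, by the deposited TSS and equally by any RefSeq TSS with the deposited TSS kept for genes without a promoter window (Fgf15 and Flrt1 among them), 3 of the 33 genes, 1 secreted ligand, 0 intracellular FGFs and 3 other pathway genes had a peak, and 4 peaks of the 33 genes were left. Within 5 kb, again by both of these, the counts were 3, 1, 0 and 2 genes, and 3 peaks. A count over only genes with a promoter window leaves out Fgf15, the 1 secreted ligand above. In it, 2 of 24 genes, 0 of 12 secreted ligands, 0 of 4 intracellular FGFs and 2 of 35 other pathway genes had a peak within 50 kb and equally within 5 kb, with 3 and 2 peaks. With the nearest assigned TSS only, by the deposited start sites, 1 intracellular FGF and 6 peaks were left. These settings count fewer pairs or genes by construction. The receptor count of 0 is among the values that stayed, and it could not move because no setting adds pairs. The median fold stayed between 5.26 and 7.40 throughout. No paired analysis was possible because each antibody had 1 library. A gene without a peak may hold occupancy that was not listed. The lowest listed pileup was 7 fragments, but the pileup needed for a peak rises with the local background.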
